A study of Mus musculus with 6 samples.

Results

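Transcripts of 7 genes of GABA signalling were followed in sorted pituitary cells: the GABA-A receptor subunits Gabra2, Gabrb1 and Gabrg1, the GABA-B receptor subunits Gabbr1 and Gabbr2, and the GABA-synthesizing enzymes Gad1 and Gad2. They were taken by gene symbol from a table of 22869 genes, and each had a single transcript row. Gabra2 was chosen by its FPKM in the lactotrope libraries, so its values are a description and were not tested. RNA had been sequenced from somatotropes, which secrete growth hormone, and lactotropes, which secrete prolactin, both collected by fluorescence-activated cell sorting from the pituitaries of untreated female mice. The mice were CD1 x C57BL/6 hybrids of 6 to 8 weeks, with 3 libraries of either type, numbered 1 to 3 in the titles as biological replicates. The sources used here give neither the marker or gate of the sort nor the number of animals behind a replicate. The p-values measure the spread between these libraries and nothing more. All levels are in FPKM, which divides a gene's fragments by its transcript length and by the mapped depth of the library. Levels of different genes can thus be set side by side as far as the lengths used hold.

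GABA acts through receptors of 2 kinds. GABA-A receptors are chloride channels of 5 subunits, usually alpha, beta and gamma, and the alpha subunit shapes their pharmacology and kinetics. GABA-B receptors couple to inhibitory G proteins and need both Gabbr1, which binds GABA, and Gabbr2, which carries the complex to the membrane and activates the G protein. GABA is made from glutamate by the decarboxylases Gad1 and Gad2. In the pituitary, GABA from the hypothalamus and from local cells is known to act on hormone-secreting cells, among them lactotropes.

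The libraries differed in more than cell type. Gh, the growth hormone gene, and Prl, the prolactin gene, each stood higher in all 3 libraries of their own cell type, and by the construction of FPKM their share lowers the values of all other genes in a library. Prl and Gh took 3.4% and 27.4% of summed FPKM in somatotrope 1, 4.5% and 9.9% in somatotrope 2 and 11.3% and 20.1% in somatotrope 3. They took 46.6% and 0.9% in lactotrope 1, 12.1% and 3.3% in lactotrope 2 and 53.0% and 2.7% in lactotrope 3. Single-exon genes stood on whole fragments in 3 libraries and gave about 29300000 mapped fragments for somatotrope 1, 17600000 for lactotrope 1 and 70200000 for lactotrope 2. The depth of the other 3, somatotropes 2 and 3 and lactotrope 3, is unknown. In these, 50.2%, 49.7% and 50.6% of values above 0 had 5 decimals, the last a 5 each time, whereas no value of the other libraries had more than 4 decimals. Means of 2 values with 4 decimals have this form, so each of these 3 may be an average of 2 measurements. The sources used here name no such step, and they were used as 1 library each. Of the 11642 tested genes, 14.94% were at 0 in lactotrope 3 and 0.23% to 2.95% in the rest, so a 0 is given here as listed and not as absence. Replicate 1 was the highest of the 3 in both cell types for 63.1% of tested genes. Summed macrophage and leukocyte markers ran from 43.4 to 613 FPKM in somatotropes and from 193 to 2110 FPKM in lactotropes, and all 8 were higher in lactotropes in every same-numbered pair.

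Gabra2 and Gabrb1, which encode the alpha 2 and beta 1 subunits, lie in the same GABA-A gene cluster on chromosome 5 and had opposite orders in the sorted cells. In FPKM, which corrects for transcript length, Gabra2 was above Gabrb1 in all 3 lactotrope libraries and below it in all 3 somatotrope libraries. In the mm9 coordinates of the table, Gabra2 spans 71352296 to 71487088 on the minus strand and Gabrb1 spans 72091255 to 72528483 on the plus strand. Between them lies Gabra4, the gene of the alpha 4 subunit, from 71960973 to 72049547 on the minus strand. In these coordinates the starts of Gabra4 and Gabrb1 point away from each other and are 41.7 kb apart, and that of Gabra2 lies 562.5 kb from that of Gabra4.

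The 250 bases before the start of each of these 3 genes are shown because neighbours in a single cluster differed in which libraries they were high in. They come from RefSeq on GRCm38.p6, a later build than that of the table, and each start was the GENCODE M21 start of the transcript named in the table. They are at chr5:71095850-71096099 for Gabra2, chr5:71658309-71658558 for Gabra4 and chr5:71699682-71699931 for Gabrb1, and each is written in the direction of transcription, the minus strand for the alpha genes and the plus strand for Gabrb1. Capitals mark the GC box GGGCGG or its reverse complement CCGCCC, the element bound by Sp1 family factors.
Gabra2: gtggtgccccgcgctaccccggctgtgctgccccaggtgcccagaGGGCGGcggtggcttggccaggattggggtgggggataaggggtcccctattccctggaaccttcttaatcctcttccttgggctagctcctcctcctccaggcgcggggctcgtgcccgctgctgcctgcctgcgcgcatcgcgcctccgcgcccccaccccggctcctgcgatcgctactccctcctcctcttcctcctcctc
Gabra4: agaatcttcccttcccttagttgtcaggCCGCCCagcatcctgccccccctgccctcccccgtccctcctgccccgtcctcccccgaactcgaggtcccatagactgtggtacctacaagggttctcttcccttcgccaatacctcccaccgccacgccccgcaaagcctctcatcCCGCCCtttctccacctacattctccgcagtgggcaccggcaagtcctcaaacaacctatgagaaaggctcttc
Gabrb1: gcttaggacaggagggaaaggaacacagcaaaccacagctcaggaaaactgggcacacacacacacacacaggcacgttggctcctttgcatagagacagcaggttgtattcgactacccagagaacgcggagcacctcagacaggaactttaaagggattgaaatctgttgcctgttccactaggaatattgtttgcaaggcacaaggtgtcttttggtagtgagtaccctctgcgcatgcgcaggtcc

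The GC box was found 1 time before Gabra2, 2 times before Gabra4 and 0 times before Gabrb1, and 32.7% of 32851 promoter windows of this length held it. GC content was 70.0% before Gabra2, 61.2% before Gabra4 and 50.8% before Gabrb1, above 90.8%, 74.8% and 44.1% of windows. The Gabra2 window held 18 CpG dinucleotides and the Gabrb1 window 6. Other motifs were searched on both strands: the TATA box TATAAA, the cyclic AMP response element TGACGTCA and ATGNATA, a core of sites of the pituitary factor Pit-1, found in 12.4%, 1.5% and 7.9% of windows. None of these letters occurred in the 3 windows shown. RefSeq has a further Gabrb1 start 42011 bases upstream of the one used, which falls inside Gabra4, so from that start the 2 genes overlap. Its window, chr5:71657671-71657920, had 64.4% GC, 18 CpG and 0 matches to any of the 4 motifs. A match or its lack is a description of these letters and says nothing about binding.

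**Figure D1:**
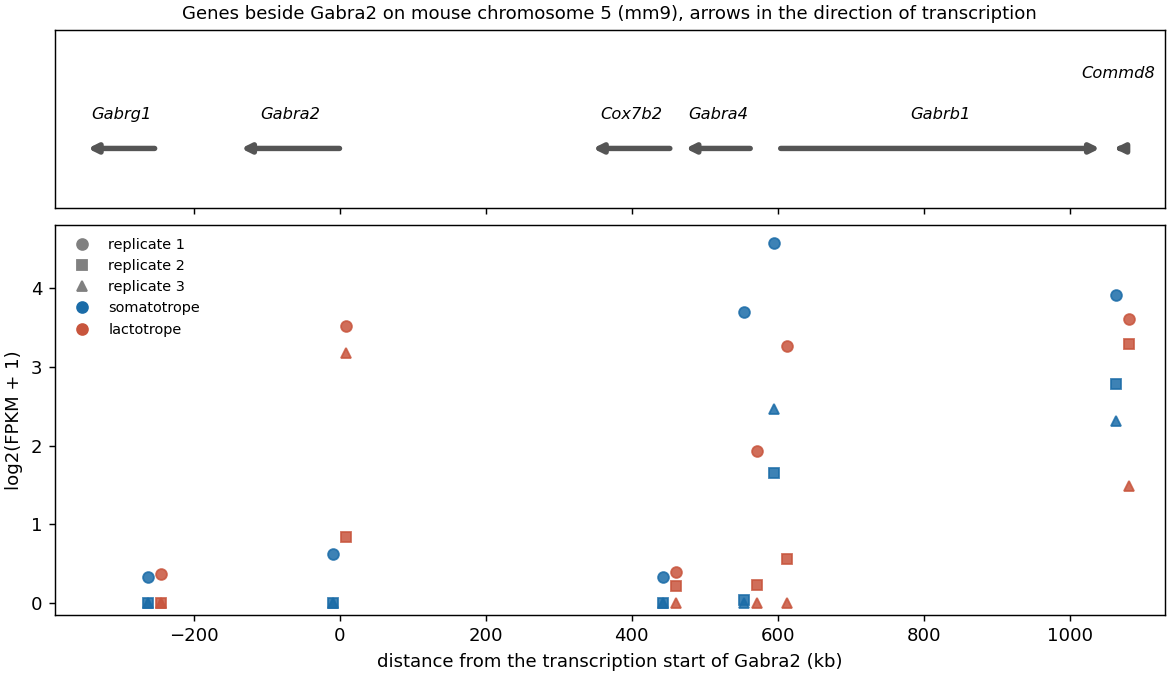
Upper panel: genes around Gabra2, with distance in kb from its transcription start on the x axis. Lower panel: log2(FPKM + 1) of each gene in each library, plotted at its start, with somatotropes in blue and lactotropes in red and 1 symbol shape per replicate. Gabra2 is highest in lactotropes 1 and 3, whereas Gabrb1 and Gabra4 are highest in somatotrope 1.

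Gabra2 had 0.543 FPKM in somatotrope 1 and was listed at 0 in somatotropes 2 and 3, while lactotropes 1 to 3 had 10.5, 0.785 and 8.02 FPKM. The cell types did not overlap, as for 1.15% of tested genes with all 3 lactotropes above all 3 somatotropes, although lactotrope 2 lay much closer to somatotrope 1 than to the other lactotropes. The somatotrope mean was 0.181 ± 0.314 FPKM (SD, n = 3) and the lactotrope mean 6.43 ± 5.04 FPKM (SD, n = 3). On the log2(FPKM + 1) scale, which understates the change of low genes, the difference, somatotrope minus lactotrope, was -2.30, and by pair it was -2.90, -0.84 and -3.17. It was -4.51 with a pseudocount of 0.1 and -1.06 with array weights. In lactotrope 3 the Gabra2 level exceeded that of 88.5% of all genes, in lactotrope 1 that of 79.4% and in lactotrope 2 that of 51.5%. With a GENCODE transcript length of 5852 bases, 0.785 FPKM in lactotrope 2 is about 323 fragments. Lactotrope 2 also held the highest leukocyte marker sum, 2110 FPKM, against 193 and 1050 FPKM in lactotropes 1 and 3, and its Prl was 25170 FPKM against 195300 and 148900 FPKM. The part of sort composition in the Gabra2 values was not tested, and in bulk samples fewer expressing cells and less RNA per cell cannot be told apart.

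Gabrb1 had 22.9, 2.15 and 4.52 FPKM in somatotropes 1 to 3 and 8.63, 0.468 and a listed 0 FPKM in lactotropes 1 to 3. Each somatotrope exceeded the lactotrope of its number, as for 22.9% of tested genes, but lactotrope 1 lay above somatotropes 2 and 3, so the groups overlapped. The somatotrope mean was 9.87 ± 11.4 FPKM (SD, n = 3) and the lactotrope mean 3.03 ± 4.85 FPKM (SD, n = 3). The log2 difference was 1.63 (SE 0.99) and did not pass limma's test over all genes (adjusted p = 1.00), nor did it with replicate as a block (SE 0.42, adjusted p = 0.288, with an unadjusted p of 0.00395). Over the alternatives run, its adjusted p lay between 0.275 and 1.00. Leaving out somatotrope 1 gave a difference of 0.79, leaving out lactotrope 3 gave 0.99 and leaving out lactotrope 1 gave 2.62, while a pseudocount of 0.1 gave 2.97.

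Within a library, which of 2 genes is higher does not depend on what the most abundant transcripts take. The size of a log2(FPKM + 1) difference does, since the added 1 shrinks it where values are low. Log2(FPKM + 1) of Gabra2 minus that of Gabrb1 was -3.96, -1.66 and -2.46 in the 3 somatotrope libraries. It was 0.25, 0.28 and 3.17 in the 3 lactotrope libraries. On this scale the 2 subunits were close together in lactotropes 1 and 2, and only lactotrope 3, where Gabrb1 was listed at 0, had them far apart. In lactotrope 2 both were low, at 0.79 and 0.47 FPKM, so the added 1 makes that difference small. In somatotropes 2 and 3 Gabra2 was listed at 0, so the differences there hold Gabrb1 alone. The order in lactotropes 1 and 2 also rests on the transcript lengths used. With GENCODE lengths of 5852 bases for Gabra2 and 13737 for Gabrb1, Gabrb1 had more fragments there. It had about 2091 against 1082 in lactotrope 1 and about 451 against 323 in lactotrope 2. As Gabra2 was chosen for its level, this order is a description.

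**Figure D2:**
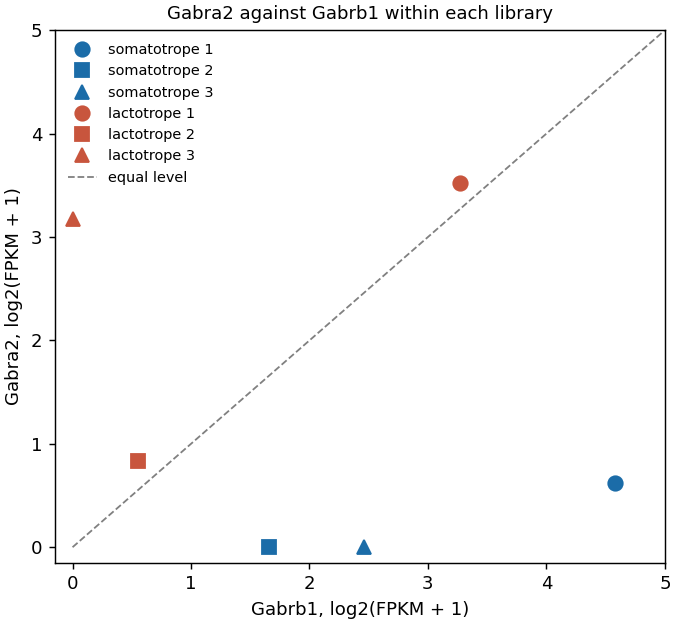
Log2(FPKM + 1) of Gabra2 on the y axis against that of Gabrb1 on the x axis, 1 point per library, with the dashed line at equal level. The 3 somatotropes lie below the line and the 3 lactotropes above it, lactotropes 1 and 2 by 0.25 and 0.28 only.

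Gabrg1, the gamma 1 subunit gene of the same cluster (71142286 to 71233856, minus strand), was nearly undetected. It had 0.258 FPKM in somatotrope 1 and 0.285 FPKM in lactotrope 1 and was listed at 0 in the other 4 libraries. Those values equal 36.0 and 24.0 fragments over a transcript of 4771 bases. In lactotrope 2 a count of 0 allows up to 0.00895 FPKM (3 fragments, counting error only). Its mean was under 1 FPKM, so it was not among the tested genes, and its log2 difference was -0.01.

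Other GABA-A subunit genes were read beside these. Gabra4, which encodes a subunit typical of extrasynaptic receptors, had 12.02 FPKM in somatotrope 1 and 2.81 FPKM in lactotrope 1, and 0.169 FPKM or less in the other 4 libraries. It was thus seen mainly in replicate 1. Gabrb1, its neighbour, was also highest in replicate 1 of both cell types, as were 63.1% of tested genes, but it had 4.52 FPKM in somatotrope 3. Gabra4 had a log2 difference of 0.53 (SE 0.96, limma adjusted p = 1.00, or SE 0.44 and adjusted p = 0.670 with the replicate block). The difference was -0.70 without somatotrope 1, 0.33 with a pseudocount of 0.1 and 0.07 with array weights. Gabra4 exceeded Gabra2 in somatotrope 1, and Gabra2 exceeded it in all 3 lactotropes. Gabra3 was at 2.77 FPKM in lactotrope 1, at 0.0550 FPKM in somatotrope 1 and listed at 0 in the others, a gene chosen after its values were seen.

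Gabrg3, the gamma 3 gene, did not follow the replicate 1 pattern. It had 1.21, 2.52 and 3.84 FPKM in somatotropes and 0.881, 1.95 and a listed 0 FPKM in lactotropes. Somatotropes were the higher in each pair. The log2 difference was 0.92 (SE 0.70, limma adjusted p = 1.00, or SE 0.47 and adjusted p = 0.505 with the replicate block). It was 0.51 without lactotrope 3, 0.49 with array weights and 2.02 with a pseudocount of 0.1. The subunit genes that follow were named after their values were seen. Gabra6, which encodes the alpha 6 subunit of cerebellar granule cells, was listed at 0 in all 6 libraries. The 3 rho subunit genes and Gabrp, Gabrq, Gabre and Gabra5 stayed below 1 FPKM throughout. Gabrd and Gabrb2 were above that level in a single library each, Gabrd at 1.31 FPKM in somatotrope 3 and Gabrb2 at 2.63 FPKM in lactotrope 1.

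**Figure D3:**
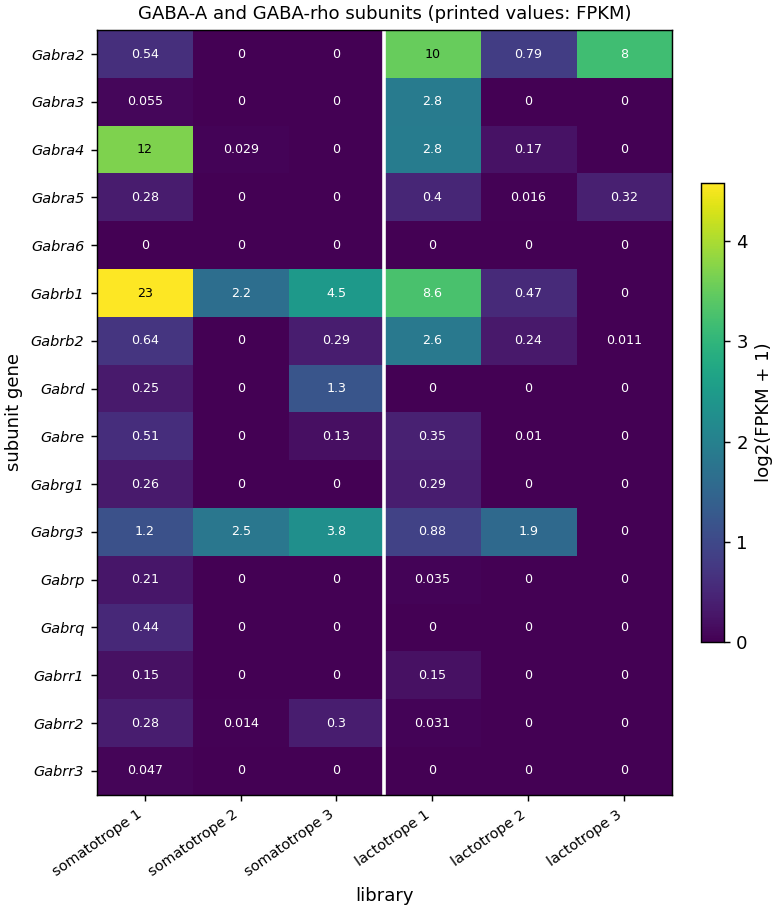
Heat map of log2(FPKM + 1) for 16 GABA-A and GABA-rho subunit genes (rows) in the 6 libraries (columns), with FPKM printed in each cell and a white line between the cell types. Gabra2, Gabrb1 and Gabra4 are brightest in replicate 1 of each cell type, where 63.1% of tested genes are highest. Gabra2 stands out in lactotropes 1 and 3.

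GABA-B receptor subunits were low and unequal. Gabbr1 (mm9 chromosome 17, 37182911 to 37211250, plus strand) was above 0 in all 6 libraries, with 2.89, 0.634 and 1.93 FPKM in somatotropes and 3.87, 0.753 and 1.37 FPKM in lactotropes. The cell types overlapped, with lactotrope 1 the highest library and somatotrope 2 the lowest, and the means were 1.82 ± 1.13 and 2.00 ± 1.65 FPKM (SD, n = 3). The log2 difference was -0.04 (SE 0.72, limma adjusted p = 1.00, or SE 0.36 and adjusted p = 0.976 with the replicate block). It was 0.31 without somatotrope 2, 0.38 without lactotrope 1 and 0.21 with array weights.

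Gabbr2 (mm9 chromosome 4, 46676770 to 47004586, minus strand) had 0.0256, 0 and 0.00355 FPKM in somatotropes and 0.709, 0.189 and 0 FPKM in lactotropes. The values of lactotropes 1 and 2 stand for about 71.9 and 76.2 fragments over 5750 bases, and that of somatotrope 1 for about 4.31. Lactotropes 1 and 2 were thus above every somatotrope, but lactotrope 3 was listed at 0. Gabbr1 exceeded Gabbr2 in all 6 libraries, and log2(FPKM + 1) of Gabbr2 minus that of Gabbr1 ran from -1.92 to -0.71 in somatotropes and from -1.51 to -0.56 in lactotropes. Gabbr2 had a mean under 1 FPKM, so limma's main fit left it out, and its log2 difference was -0.33, or -1.39 with a pseudocount of 0.1.

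Of the GABA-synthesizing enzymes, Gad2 was above 0 in every library and Gad1 in 1. Gad2, which encodes GAD65 (mm9 chromosome 2, 22477847 to 22549397, plus strand), had 0.663, 0.492 and 0.984 FPKM in somatotropes 1 to 3. Lactotropes 1 to 3 had 1.97, 0.329 and 2.498 FPKM. Lactotropes 3 and 1 were the highest of the 6 libraries and lactotrope 2 the lowest, so the groups overlapped, and by pair the log2 difference was -0.84, 0.17 and -0.82.

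The somatotrope mean of Gad2 was 0.713 ± 0.250 FPKM (SD, n = 3), and the lactotrope mean was 1.60 ± 1.13 FPKM (SD, n = 3). The log2 difference was -0.50 (SE 0.65, limma adjusted p = 1.00, or SE 0.36 and adjusted p = 0.624 with the replicate block). It was -0.22 without lactotrope 3 and -0.92 without lactotrope 2, and it turned to 0.18 with array weights and was -0.75 with a pseudocount of 0.1. Gad1, which encodes GAD67 (mm9 chromosome 2, 70400221 to 70440069, plus strand), had 0.0105 FPKM in somatotrope 1, about 1.03 fragments over 3355 bases. It was listed at 0 in the other 5, which at the depth of lactotrope 2 allows up to 0.0127 FPKM. A low row on the opposite strand overlaps Gad1, and the sources used here do not say whether the counting used strand.

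**Figure D4:**
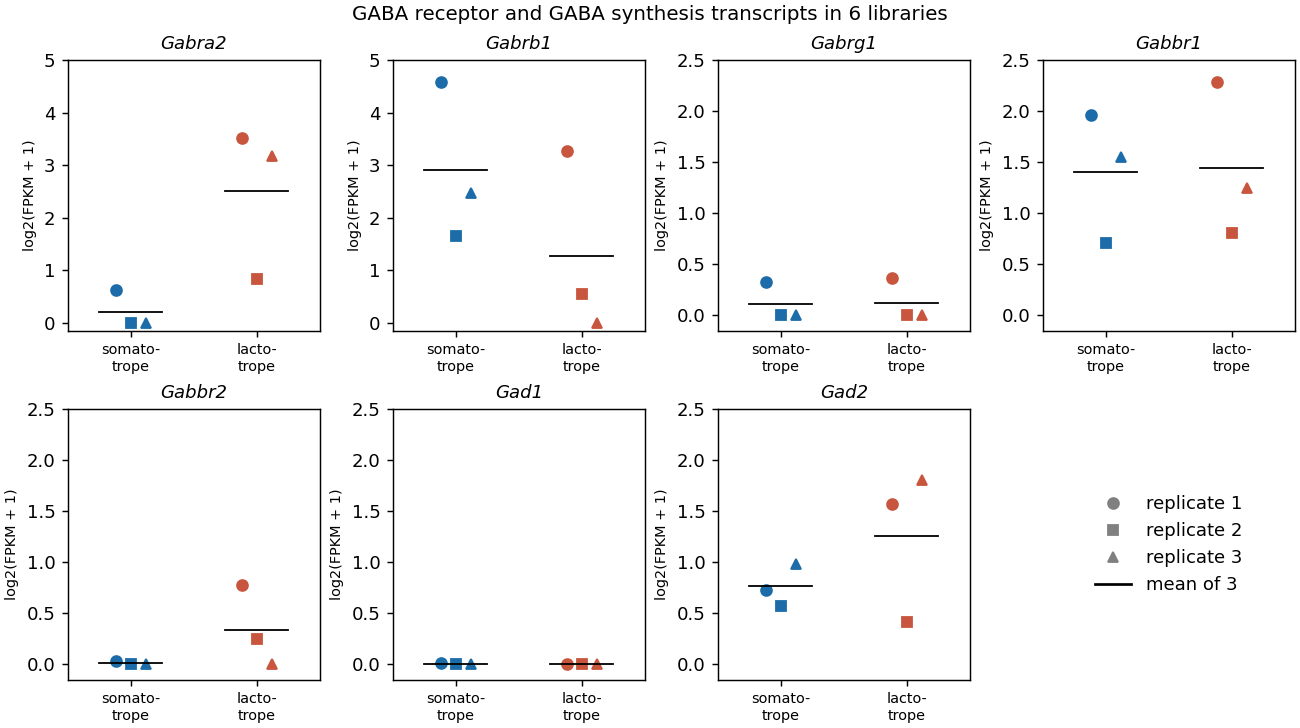
Log2(FPKM + 1) of each of the 7 genes in each library, with 1 symbol shape per replicate and the mean of each cell type as a black line; the y axis reaches 5 for Gabra2 and Gabrb1 and 2.5 for the rest. Gabra2 alone has all 3 lactotropes above all 3 somatotropes, and Gabrg1 and Gad1 lie near 0.

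Of the 7 genes, 4 (Gabra2, Gabrb1, Gabbr1 and Gad2) had a mean of at least 1 FPKM. Of the 3 of these that were tested, 0 passed at 0.05 after adjustment in limma, without or with the replicate block, where 0% of 11642 genes passed in either direction. Before adjustment, p was under 0.05 for 112 genes without the block and 1271 with it, or 0.962% and 10.9%, and of the 3 tested genes Gabrb1 was among the latter. Array weights gave 9 called genes and leaving out somatotrope 1 gave 3, none of them a tested member. For the 6 genes other than Gabra2, an exact permutation test, two-sided, gave p between 0.3 and 1.0, where 3 against 3 libraries cannot go below 0.1.

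The lists of other GABA pathway genes were read the same way, against 22.9% of tested genes higher in somatotropes in each pair and 11.2% higher in lactotropes. In each list, 0 genes passed limma's test, without or with the replicate block. In the list of GABA breakdown, uptake and vesicle loading, 4 of 9 genes had a mean of at least 1 FPKM. Of these, Abat degrades GABA, Slc6a11 takes it up, and Maob and Aldh9a1 belong to a route that makes GABA from putrescine. All 4, and 5 of all 9, were higher in somatotropes in every pair, and their median log2 difference was 0.87 against 0.18 over all tested genes. Abat, the GABA transaminase, had 22.1, 13.3 and 6.27 FPKM in somatotropes and 19.5, 5.82 and 2.19 FPKM in lactotropes. Its difference was 0.81 (SE 0.77, limma adjusted p = 1.00, or SE 0.34 and adjusted p = 0.445 with the replicate block).

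Maob, a monoamine oxidase, had 7.07, 33.2 and 14.2 FPKM in somatotropes and 3.83, 12.4 and a listed 0 FPKM in lactotropes. Its difference was 2.01 (SE 0.91, limma adjusted p = 1.00, or SE 0.57 and adjusted p = 0.333 with the replicate block). Aldh9a1, an aldehyde dehydrogenase, had 48.2, 12.04 and 11.97 FPKM in somatotropes and 27.9, 11.8 and 2.198 FPKM in lactotropes. Slc6a11, the plasma membrane GABA transporter GAT3, had 3.15, 0.467 and 0.641 FPKM in somatotropes and 1.69, 0.375 and 0.297 FPKM in lactotropes. Slc32a1, the vesicular GABA transporter, which was named after its values were seen, did not exceed 0.0386 FPKM in any library. Summed stem and folliculostellate markers were also higher in somatotropes in each pair, at 165, 1550 and 943 FPKM against 89.0, 521 and 131 FPKM. Mia1 made up most of each sum, and 4 of the 5 markers, all but S100b, were higher in somatotropes in every pair. The part of stem and folliculostellate cells in the levels of the genes of this list was not tested.

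Genes of GABA-B signalling beyond the receptor itself were mixed. Of 6 auxiliary and binding partner genes, 3 had a mean of at least 1 FPKM. Kctd12, whose protein is an auxiliary GABA-B subunit that desensitizes the response, had 1.53, 0.962 and 1.78 FPKM in somatotropes and 2.46, 3.18 and 2.171 FPKM in lactotropes. It was the only gene of these further lists with all 3 lactotropes above all 3 somatotropes, as were 1.15% of all tested genes. The difference of Kctd12 was -0.58 (SE 0.66, limma adjusted p = 1.00, or SE 0.38 and adjusted p = 0.587 with the replicate block). Ajap1, a partner that binds Gabbr1, had 0.936, 6.07 and 0.0398 FPKM in somatotropes and 0.0554, 0.613 and a listed 0 FPKM in lactotropes.

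GABA-B effectors had 3 of 11 tested members higher in somatotropes in every pair and 0 higher in lactotropes, with a median difference of 0.33. Gnai2, an inhibitory G protein alpha subunit, had 41.9, 45.9 and 48.6 FPKM in somatotropes and 58.1, 73.3 and 42.0 FPKM in lactotropes. Gnai3, a second such subunit, had 54.0, 22.9 and 20.2 FPKM in somatotropes and 36.9, 13.3 and 11.96 FPKM in lactotropes. The difference of Gnai3 was 0.66 (SE 0.64, limma adjusted p = 1.00, or SE 0.27 and adjusted p = 0.433 with the replicate block). Gnb1, a G protein beta subunit, had 110, 101 and 72.9 FPKM in somatotropes and 109, 58.2 and 31.9 FPKM in lactotropes.

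Receptor assembly and anchoring genes lay close to the median of all genes. Of 16 tested genes, somatotropes were the higher in each pair for 5 and lactotropes for 3, with a median difference of 0.20. Gabarap, which binds gamma subunits and also serves autophagy, had 175, 54.7 and 91.9 FPKM in somatotropes and 149, 46.6 and 70.6 FPKM in lactotropes. Gphn, which encodes the anchoring protein gephyrin and was chosen after its values were seen, had 8.68, 2.95 and 2.96 FPKM in somatotropes against 9.30, 3.37 and 0.699 FPKM in lactotropes. Dbi, the diazepam-binding inhibitor that acts at the benzodiazepine site, was abundant in both cell types, at 41.6, 126 and 168 FPKM in somatotropes and 58.8, 76.5 and 83.6 FPKM in lactotropes.

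Chloride transporters set whether GABA-A channels hyperpolarize or depolarize a cell. Of 9 tested genes of this list, 3 were higher in somatotropes in every pair and 1 in lactotropes, with a median difference of 0.05. Slc12a7, a potassium-chloride exporter, had 9.48, 10.2 and 7.46 FPKM in somatotropes and 4.21, 4.54 and 2.41 FPKM in lactotropes. All 3 somatotropes lay above all 3 lactotropes, as for 2.51% of tested genes. The difference of Slc12a7 was 1.11 (SE 0.64, limma adjusted p = 1.00, or SE 0.34 and adjusted p = 0.337 with the replicate block). The chloride importer Slc12a2 and the neuronal exporter Slc12a5 were chosen after their values were seen. Slc12a2 had 11.4, 2.40 and 2.28 FPKM in somatotropes and 6.65, 1.58 and a listed 0 FPKM in lactotropes, and Slc12a5 had 1.35, 0.209 and 0.358 FPKM against 2.29, 0.0520 and 0.198 FPKM.

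**Figure D5:**
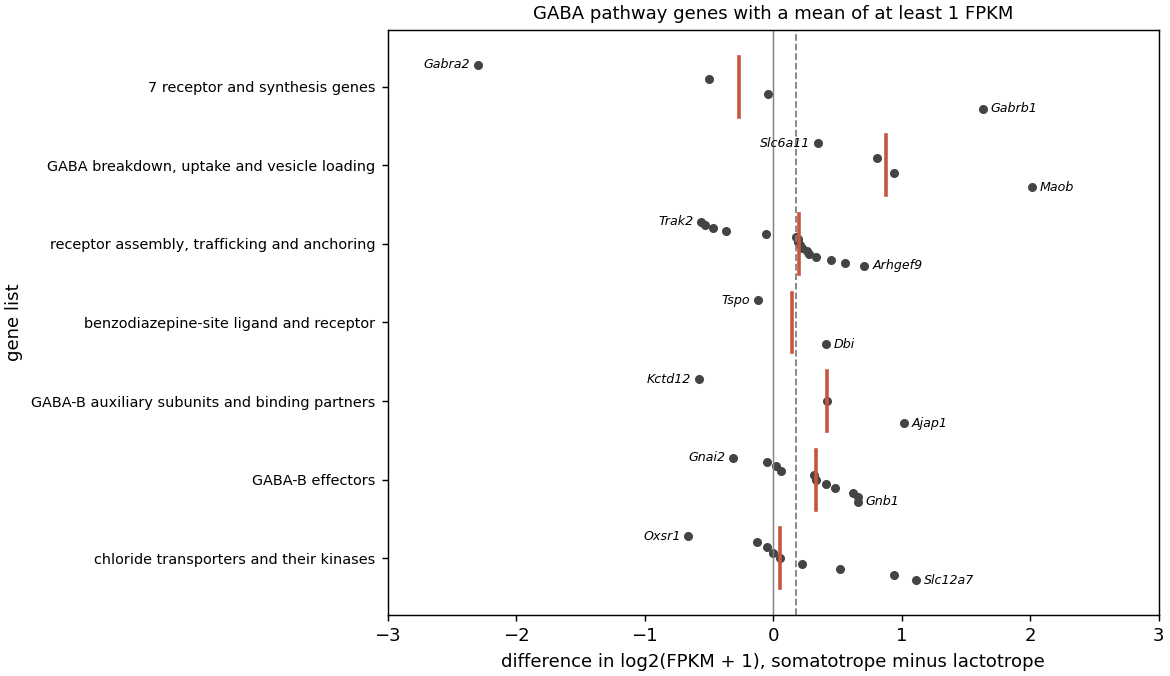
Difference in log2(FPKM + 1), somatotrope minus lactotrope, for each gene with a mean of at least 1 FPKM (points), by list, with the list's median as a red bar, 0 as a solid line and the median of all tested genes, 0.18, as a dashed line; the extreme genes of each list are named. Gabra2 and Gabrb1 lie at -2.30 and 1.63, Gabra2 below every other point, and only Maob, at 2.01, lies above Gabrb1.

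The 5 genes whose pattern was most like that of Gabra2 were Epha6, Alg3, Impg1, Gyk and Grip1, with Pearson correlations of 0.988, 0.987, 0.981, 0.976 and 0.974 over the 6 libraries. These libraries fall into 2 cell types and share replicate numbers, so the correlations are a description. Of 11641 other tested genes, 15 had a correlation above 0.95. Epha6, an ephrin receptor gene, had 0.0730, 0 and 0 FPKM in somatotropes and 4.52, 0.416 and 2.62 FPKM in lactotropes. Impg1, which encodes a proteoglycan of the photoreceptor matrix, had 1.44, 0.00315 and 0.00995 FPKM in somatotropes and 22.0, 0.579 and 9.47 FPKM in lactotropes. In all 5, lactotropes 1 and 3 were the highest libraries. The correlation of Gabra2 was 0.94 with Prl, 0.856 with Gad2 and -0.162 with Gabrb1.

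Markers of neural tissue were read beside the GABA genes, since the posterior lobe holds nerve endings and glia. Avp and Oxt, the vasopressin and oxytocin genes of hypothalamic neurons, were highest in somatotrope 3, at 93.0 and 99.5 FPKM, and at 5.67 and 5.94 FPKM in lactotrope 3. In lactotrope 1 Avp was at 0.112 FPKM and Oxt was listed at 0, while Gabra2 was at its highest there. The 8 neuron markers summed to 14.9 to 199 FPKM in somatotropes and 16.2 to 36.0 FPKM in lactotropes, and the 8 pituicyte and glia markers to 6.38 to 125 and 10.4 to 35.3 FPKM. Of the latter, 3, 3 and 1 were listed at 0 in somatotropes 1 to 3 and 1 in lactotrope 2. Gfap and Rax were among those of somatotrope 1, and Rax among those of somatotrope 2. In lactotropes 1 and 3, the libraries with the most Gabra2 and Gad2, 4 and 5 were listed at 0, Gfap and Rax in both. Others were present there, with Mbp, a myelin gene, at 2.23 and 11.04 FPKM, Col25a1 highest of the 6 libraries in lactotrope 1 at 3.84 FPKM and Lhx2 above 0 in lactotrope 3 alone, at 1.95 FPKM. Slc17a6, a vesicular glutamate transporter on the neuron list, had 8.35, 0.868 and 0.825 FPKM in somatotropes and 13.8, 0.647 and 4.62 FPKM in lactotropes. Slc17a7 of that list was also highest in lactotrope 1, at 1.62 FPKM. Rbfox3, Nefl, Nefm and Stmn2, also on it, were each highest in a somatotrope library. Pomc, the corticotrope and melanotrope hormone gene, was lowest in somatotrope 1 at 93.6 FPKM and highest in somatotrope 3 at 5758 FPKM. Tbx19 and Crhr1 of the same list were highest in lactotrope 1, at 15.4 and 6.33 FPKM, where Gabra2 was also highest. Pcsk2 and Pax7, the others of that list, were highest in somatotrope 3 like Pomc, at 4.457 and 0.1265 FPKM. In lactotrope 1 Pcsk2 was at 1.734 FPKM and Pax7 was listed at 0. The part of these other cells in the levels of the GABA genes was not tested.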

How the data were processed

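RNA from FACS-sorted somatotropes and lactotropes (3 libraries each) was amplified (NuGen Ovation V2, per the labels' protocols). The build mm9 and the tools TopHat, edgeR and bcl2fastq 2.17.1.14 are named, without roles, per the submitters' processing notes. The file deposited by the authors holds FPKM for 30399 transcript rows. The sources used here do not say how fragments were counted, and FPKM are not counts, so no count test was run. The 889 rows without a symbol were left out, and each of 22869 symbols took its row with the highest mean. Those reaching a mean of 1 FPKM, 11642 genes, were tested as log2(FPKM + 1) with limma 3.58.1 in R 4.3.3 (intensity trend, Benjamini-Hochberg at 0.05, no block). Same-numbered libraries deviated together (correlations over genes of 0.763, 0.613 and 0.341), so the replicate block pairs them by the numbers in the titles. Somatotrope 3 with lactotrope 2 gave 0.233, so the pairing is least clear for replicate 3. The code was tested on simulated data.

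Depth was read from single-exon genes: in somatotrope 1, lactotrope 1 and lactotrope 2, 100.0%, 100.0% and 99.5% of 602, 351 and 205 low values were whole fragments to within 0.1. Fragment numbers of multi-exon genes use GENCODE M21 lengths, which may differ from the authors'. No library pair was a duplicate (at most 2.36% of genes within 1%). Members and lists were chosen with earlier results of these data known. Named are the 7 genes, other GABA-A subunits reaching a mean of 1 FPKM (some genes are not reported here), examples from up to 5 genes per list by mean level, the 5 genes most correlated with Gabra2, and others marked where they appear as picked after seeing values. Wnk3, on the chloride list, had no row under that symbol.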

Additional observations from a re-analysis of the deposited data

How the results depend on the processing

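The alternatives were the replicate block, pseudocounts of 0.1 and 0.5, no filter and a filter at 5 FPKM, median-ratio scaling, quantile normalization, no intensity trend, array weights, the sum of a symbol's rows, and leaving out each library. The count of members called was 0 in all of them. The count of genes called over the table was 0 in the main fit and 0 with the replicate block, 9 with array weights, and 0 to 3 with a library left out (3 without somatotrope 1). Pairing by block changed no call. Array weights turned the differences of Gabbr1 to 0.21 and of Gad2 to 0.18, and moved that of Gabra2 to -1.06. With 1 library left out, differences ran from -3.14 to -1.80 for Gabra2, 0.79 to 2.62 for Gabrb1, -0.12 to 0.11 for Gabrg1, -0.36 to 0.38 for Gabbr1, -0.50 to -0.11 for Gabbr2 and -0.92 to -0.22 for Gad2. They ran from -0.70 to 1.15 for Gabra4 and 0.51 to 1.29 for Gabrg3. A pseudocount of 0.1 put Gabra2 at -4.51, Gabbr2 at -1.39, Gabrb1 at 2.97 and Gabrg3 at 2.02. Median-ratio scaling took the median difference of all genes from 0.179 to 0.05 and quantile normalization took it to 0.021, and under these Gabra2 stood at -2.37 and -2.38 and Gabrb1 at 1.66 and 1.79. The cause of these changes was not tested. Depth is unknown in 3 libraries, which limits what a listed 0 says there.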
